A study of Mus musculus with 5 samples.

Results

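The Rab GTPase genes expressed in cultured mouse neural stem/progenitor cells (NSPCs) were examined one by one. They were taken by symbol, as Rab followed by a number and, where present, a letter and a further digit. Of the 12588 genes with a value, 51 were Rab genes, and they held 74 of the 22227 listed transcripts. The GENCODE annotation of GRCm38 has 59 mouse genes with such a symbol. The 8 that the table does not list are Rab15, Rab19, Rab25, Rab27a, Rab37, Rab42, Rab44 and Rab9b.

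Rab proteins are small GTPases that mark the membranes of a cell and direct the budding, transport and fusion of vesicles between them. Each one switches between a GTP-bound form that recruits effectors and a GDP-bound form. Guanine nucleotide exchange factors (GEFs) turn it on, GTPase-activating proteins (GAPs) turn it off, and a lipid attached to cysteines at its end holds it on the membrane. In NSPCs these proteins carry receptors, adhesion molecules and secreted factors to and from the cell surface.

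RNA-Seq was performed on 5 NSPC cultures of C57BL/6J mice, 2 labelled WT (p75NTR+/+, replicates 1 and 4) and 3 labelled p75NTR-/- (replicates 1, 2 and 4). The WT animals were littermates of the p75NTR-/- ones, and both kinds of culture were grown without treatment in proliferation medium with FGF-2 and EGF, each at 20 ng/ml. The sample labels give E12.5 embryos as the source, whereas the study's methods describe NSPCs of the adult subventricular zone. The study describes 4 replicates from independent preparations, whereas 2 libraries labelled WT and 3 labelled p75NTR-/- were analysed here. The study asks which genes depend on the p75 neurotrophin receptor (p75NTR). The deposited totals corresponded to 11688211 to 14452396 counts per library.

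Ngfr, the gene of p75NTR, was examined first. Under the WT label, replicates 1 and 4 held 0.98 and 2.08 normalized counts of it, whereas replicates 1, 2 and 4 of the p75NTR-/- label held 9.89, 141 and 251. The targeted gene thus goes against the labels, so that groups are named here by their labels and every direction is one between labels. The labels do not say which exons the allele removes. All 8 listed NSPC markers were present, at a summed level of 7440 to 9010 TPM (a transcript abundance scaled to the length of a transcript and to the library) in the 5 libraries. The libraries with the number 4 were close to each other under both labels. Over all genes with a mean of at least 50 normalized counts, the median absolute log2 difference between the labels was 0.0923 within number 4 and 0.346 within number 1.

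Values of single libraries are given below in one order, replicates 1 and 4 labelled WT and then replicates 1, 2 and 4 labelled p75NTR-/-. A gene sum is the sum of the normalized counts of a gene's listed transcripts. A level that is compared between genes is a TPM value. The counts per TPM followed the coding length of a transcript (Pearson's r of 0.984 to 0.985 across 11936 to 12113 transcripts of a library) more closely than its full length (0.769 to 0.776). The level is therefore read here as per coding length.

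Rab genes were expressed over a wide range of levels in the NSPC cultures. Together they took 0.333% to 0.358% of the normalized counts of a library and summed to 4734 to 5043 TPM. The 5 genes with the highest mean level held 47.9% of that sum, 13 genes had a mean of 100 TPM or more, and 15 had a mean under 10 TPM. All but Rab3c had more than 3 counts in each of the 5 libraries.

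Rab7, which directs late endosomes to lysosomes, had the highest TPM of the family. Its TPM was 708 and 640 under the WT label and 692, 680.3 and 680.2 under the p75NTR-/- label, so that no library stood apart. By gene sum, however, Rab7 was below Rab31 and Rab6a in each library, with means of 4700, 5579 and 6003 normalized counts. Rab7-205, of 621 coding bases, held 78.8% to 81.2% of the Rab7 gene sum. The rest was Rab7-206, a short form of 264 coding bases. Rab31, a Rab5 relative of the endosome and trans-Golgi network, followed with 509, 507, 626, 557 and 517 TPM. Rab6a, which acts in transport at the Golgi, had 530, 552, 570, 437 and 586 TPM. The ranges of Rab31 and Rab6a overlapped, and neither gene lay above the other in all libraries. Rab5c, a Rab of early endosomes, had 352, 427, 241, 354 and 414 TPM, all below the lowest library of Rab6a. Its gene sums were nearly equal in replicates 1 and 2 labelled p75NTR-/-, at 2796 and 2803 normalized counts. The short Rab5c-203, of 104 coding bases, was absent from that replicate 1 and counted in that replicate 2, so these TPM values depend on it. Rab1a, which acts between the endoplasmic reticulum (ER) and the Golgi, had 223, 261, 262, 251 and 252 TPM, and its range overlapped that of Rab5c through replicate 1 labelled p75NTR-/-. It also could not be separated by its range from Rab10, an exocytic Rab with 212 to 254 TPM.

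**Figure D1:**
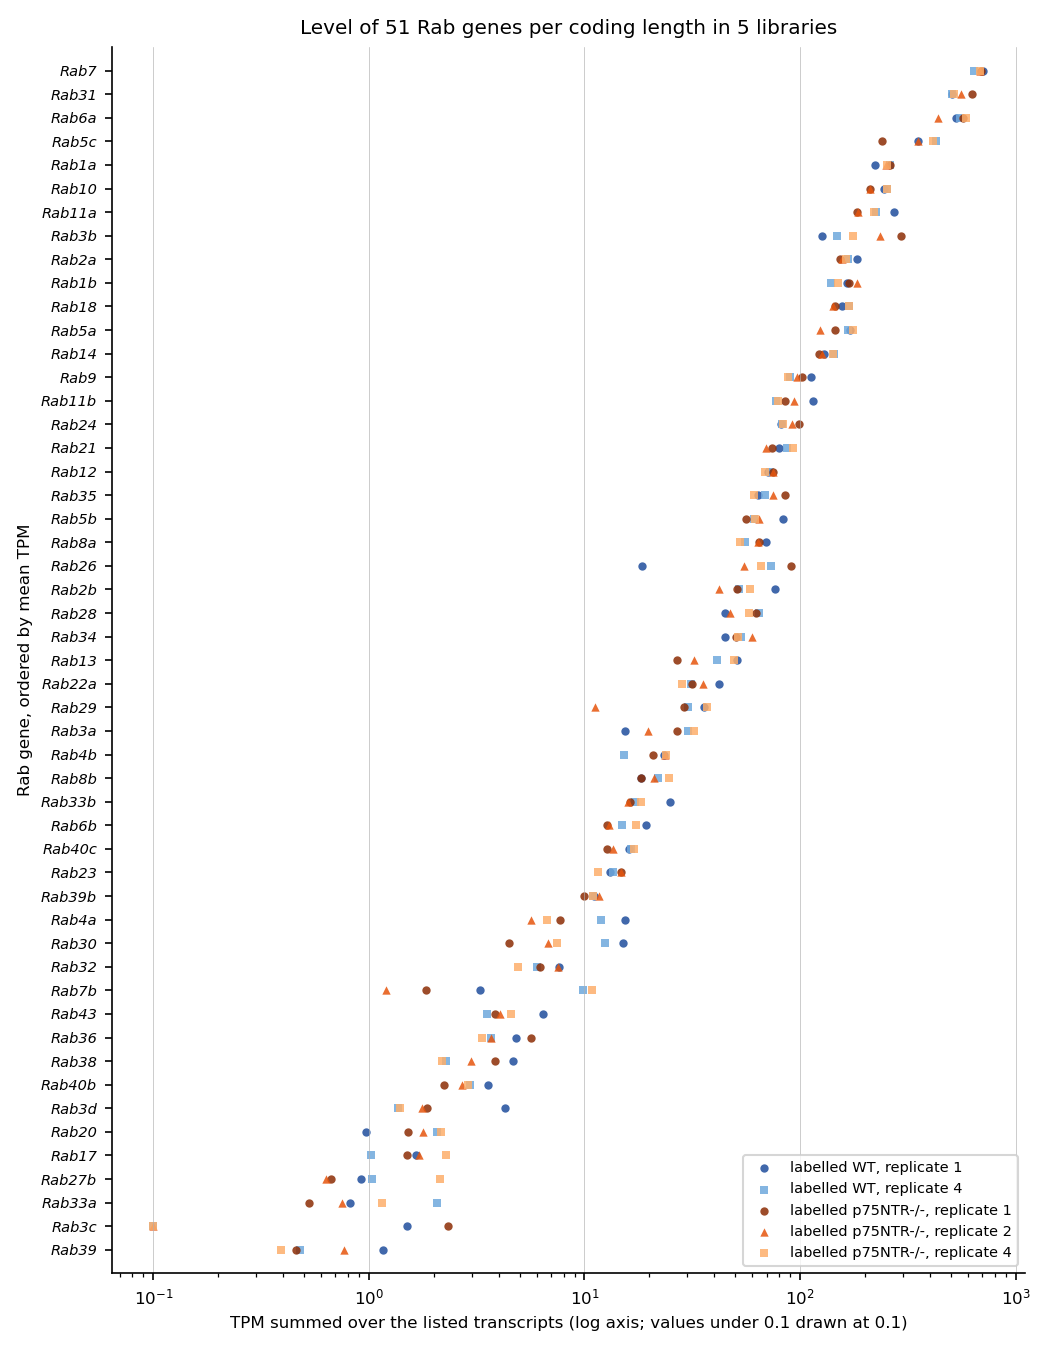
Level of each of the 51 Rab genes in TPM (horizontal log axis, summed over listed transcripts, values under 0.1 drawn at 0.1), ordered by the mean of the 5 libraries, with one point per library, blue for the WT label and orange to brown for the p75NTR-/- label. Rab7 is at the top and Rab39 at the bottom, and for most genes the 5 points lie close together. Among the genes with more spread are Rab26, Rab7b, Rab30, Rab4a and Rab3c, and the low genes Rab27b, Rab33a, Rab3d and Rab39.

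The gene sums of the labels were compared with limma on log2(gene sum + 1), fitted over all 12588 genes. A call needed a mean of 50 normalized counts or more, a 1.5-fold difference or more, and a p under 0.05 after Benjamini-Hochberg adjustment, which are the criteria of the study. None of the 51 Rab genes was called, where 0.00794% of all genes were. At an unadjusted p under 0.05 in limma there were 3 Rab genes (5.88%, against 2.08% of all genes), which were Rab4a, Rab30 and Rab3b. The smallest adjusted p of a Rab gene was 0.93. The libraries of both labels did not overlap for 7 Rab genes. The p75NTR-/- label was lower for 4 of them (7.84%, against 7.53% of all genes) and higher for 3 (5.88%, against 7.52%), so that both shares were near the background.

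Most Rab genes differed little between the labels. Of the 40 genes with a mean of at least 50 normalized counts, 34 had an absolute log2 fold change under 0.3 and 34 had a 95% interval within a log2 fold change of -1 to 1. The log2 fold change was above 0 for 17 of the 51 genes (33.3%, against 50.7% of all genes), and its median was -0.12 for the Rab genes and 0.0039 for all genes. Between the 2 libraries numbered 1 the median of the Rab genes was -0.19, and between those numbered 4 it was 0.035. The smallest relative spread over the 5 libraries among the 40 genes was that of Rab12, which carries the transferrin receptor towards lysosomes, with gene sums of 874, 881, 907, 901 and 853 normalized counts. Rab7 came next, with a coefficient of variation of 4.09% against 2.48% for Rab12.

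**Figure D2:**
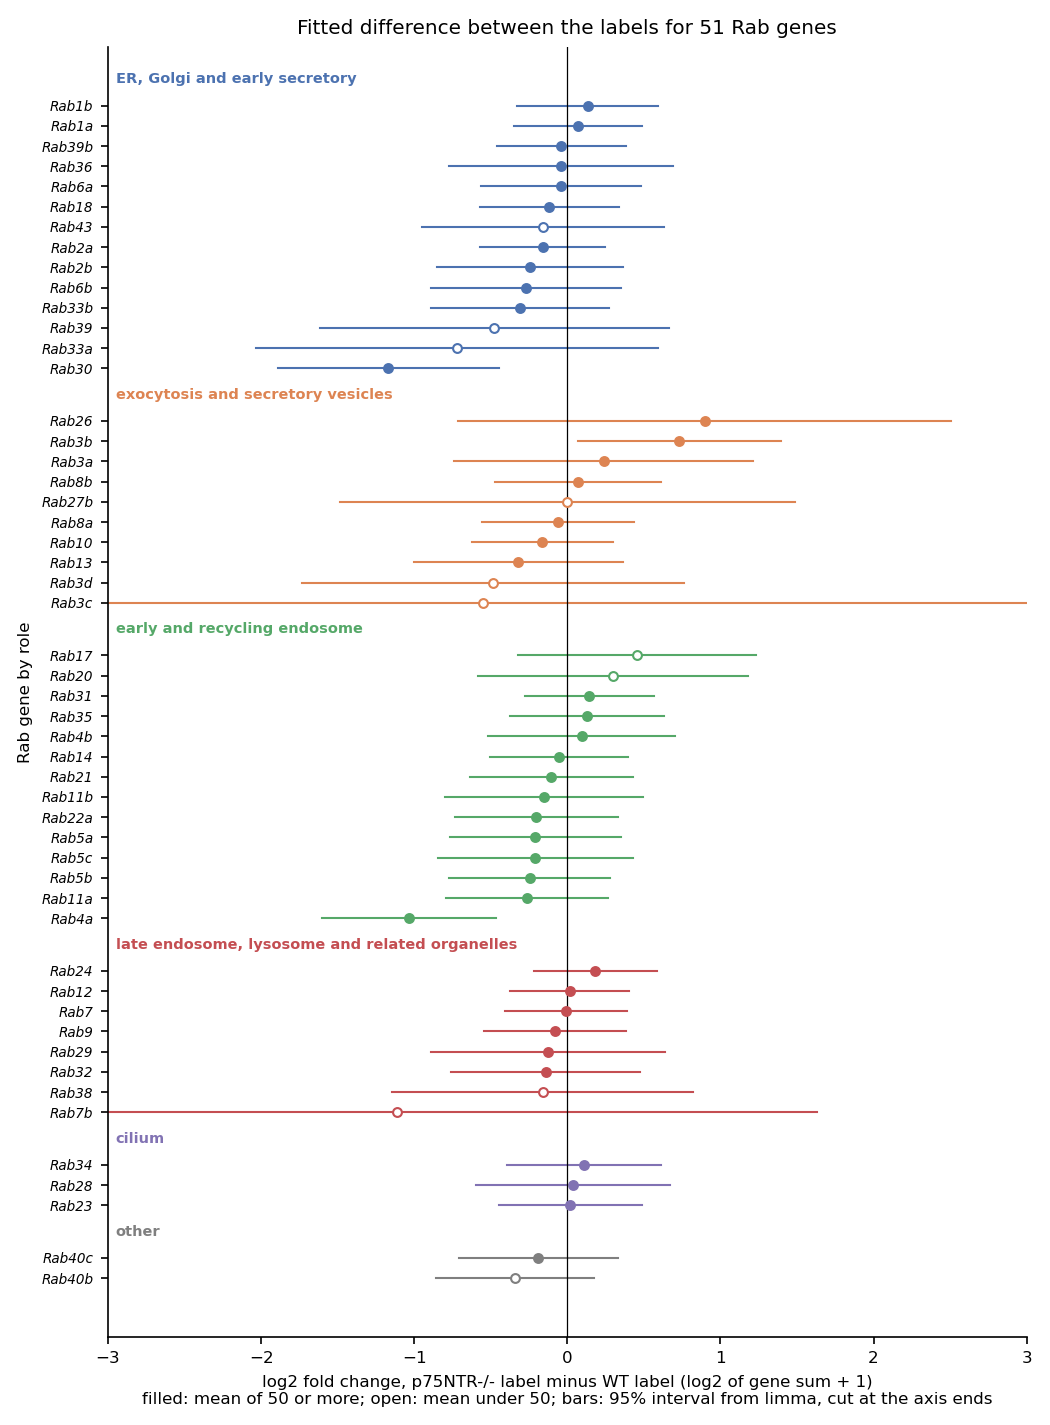
Fitted log2 fold change of the 51 gene sums (p75NTR-/- label minus WT label, horizontal axis) with its 95% interval from limma, grouped by role, with filled points for a mean of 50 normalized counts or more and open points below. The intervals of Rab30, Rab4a and Rab3b do not include 0, and none of the 51 genes passed the adjusted threshold.

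Rab4a had the smallest unadjusted p of the family. Rab4a and its paralog Rab4b return endocytosed receptors from early endosomes to the plasma membrane by the fast route. Rab4a spans 123805985 to 123835287 on the plus strand of chromosome 8 in GRCm38 and has 1 listed transcript, Rab4a-202 (ENSMUST00000118535), with a coding length of 654 bases. Its coding sequence shared 73.3% of aligned bases with that of Rab4b, 62.9% with Rab14, 58.0% with Rab2a and 56.9% with Rab2b. The last 60 coding bases before the stop codon are shown for Rab4a and its 2 nearest relatives because they hold the cysteine codons that receive the lipid, in capitals. They come from the GENCODE transcripts of GRCm38 and run 5′ to 3′.
Rab4a: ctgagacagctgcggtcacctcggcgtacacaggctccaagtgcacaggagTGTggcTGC
Rab4b: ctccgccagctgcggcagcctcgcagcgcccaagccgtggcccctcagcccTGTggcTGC
Rab14: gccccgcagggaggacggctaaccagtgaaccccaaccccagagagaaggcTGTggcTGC

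The ends of these 3 genes share the last 9 bases, TGTggcTGC, and differ before them. Of the stretches of 31 bases in the Rab4a coding sequence, 99.7% occur in the coding sequence of no other annotated gene.

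The Rab4a gene sum was 186 and 144 normalized counts in the libraries labelled WT and 91.0, 67.3 and 81.4 in those labelled p75NTR-/-. Both WT libraries were higher than all 3 others, with means of 165 ± 30.3 (SD, n = 2) and 79.9 ± 11.9 (SD, n = 3). These values rest on 190, 138, 92, 56 and 77 counts. The log2 fold change was -1.04 (standard error 0.22, 95% interval -1.61 to -0.47), with an unadjusted p of 0.0054 and an adjusted p of 0.93 from limma. It was -1.03 between the libraries numbered 1 and -0.81 within number 4. Fewer cells that express a gene and less RNA per cell cannot be told apart in such bulk cultures.

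Rab4b, on chromosome 7 from 27168424 to 27178896, did not follow Rab4a. Its gene sum was 260.1 and 167 against 211, 231 and 227 normalized counts, and the labels overlapped (log2 fold change 0.09, 95% interval -0.52 to 0.70, and -0.22 without replicate 4 labelled WT). Within each library, the log2 ratio of normalized counts of Rab4a to Rab4b was -0.48 and -0.22 under the WT label and -1.20, -1.76 and -1.47 under the p75NTR-/- label. On the TPM scale, the level of Rab4a was 0.660 and 0.779 times that of Rab4b in the libraries labelled WT and 0.368, 0.239 and 0.282 times in those labelled p75NTR-/-. In normalized counts the ratio was 0.718 and 0.858 against 0.435, 0.295 and 0.361. The TPM sum of Rab4b includes a short transcript, Rab4b-208, of 309 coding bases against 639 for Rab4b-201. The difference of the log2 ratio was -1.13 (exact permutation test, two-sided, p = 0.1, the smallest value that 2 against 3 libraries allow). It was -0.72 within number 1 and -1.25 within number 4.

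The other relatives of Rab4a were close between the labels. Rab14, which acts between endosomes and the Golgi, had gene sums of 1431 and 1633 against 1381, 1409 and 1643 normalized counts. Rab2a, a Golgi Rab, had 2146 and 1948 against 1755, 1798 and 1935, and its labels did not overlap at a log2 fold change of -0.16. Rab2b had 407 and 264 against 278, 261 and 293. The log2 ratio of Rab4a was lower under the p75NTR-/- label by -0.98 to Rab14, -0.87 to Rab2a and -0.79 to Rab2b. Each of these ratios separated the labels without overlap and gave the same exact permutation p of 0.1. These ratios and the one to Rab4b share the same Rab4a values, so they are not separate tests of Rab4a. The ratios to Rab14, Rab2a and Rab2b were planned as values only. Rab4a was itself chosen with earlier results of these data known, so the p-values of its ratios are descriptions.

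Rab30, a Rab of the Golgi, had the largest negative log2 fold change of the family. It lies on chromosome 7 from 92741603 to 92844535 and has 1 listed transcript, Rab30-201 (ENSMUST00000032879), with a coding length of 609 bases, in which each stretch of 31 bases is unique to the gene. Over aligned coding bases it was 58.1% identical to Rab43, 50.8% to Rab33b and 50.2% to Rab33a, and its nearest gene by this measure was Rab1a (58.8%). Rab43 ranked 3, Rab33b 41 and Rab33a 46 of 58 Rab genes, so that Rab33b and Rab33a were not near Rab30 by coding sequence. The coding ends show how Rab30 differs from the relatives it was compared with, since its cysteine codons, in capitals, stand side by side and are followed by further codons.
Rab30: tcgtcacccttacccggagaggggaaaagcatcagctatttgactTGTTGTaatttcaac
Rab33b: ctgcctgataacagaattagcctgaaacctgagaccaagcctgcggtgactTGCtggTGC
Rab43: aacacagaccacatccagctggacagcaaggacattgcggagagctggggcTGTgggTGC

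The Rab30 gene sum was 166 and 135 normalized counts in the libraries labelled WT and 48.5, 72.1 and 82.4 in those labelled p75NTR-/-. The labels did not overlap, and replicate 1 labelled p75NTR-/- was the lowest. Their means were 151 ± 21.7 (SD, n = 2) and 67.7 ± 17.4 (SD, n = 3), from 169, 130, 49, 60 and 78 counts. The log2 fold change was -1.17 (standard error 0.28, 95% interval -1.89 to -0.45, unadjusted p = 0.0088 and adjusted p = 0.93 from limma). It was -1.75 between the libraries numbered 1 and -0.71 within number 4.

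The listed relatives of Rab30 had smaller differences in the fit over all libraries, and their values overlapped between the labels. Rab33b, which binds the autophagy protein Atg16l1 at the Golgi, had 285 and 196 against 183, 178 and 211 normalized counts (log2 fold change -0.31, and -0.040 without replicate 1 labelled WT). Rab43, which acts between the ER and the Golgi, had 55.9 and 29.1 against 34.6, 34.8 and 39.1, values that are uncertain because only 74.2% and 81.0% of the stretches of 31 bases in its 2 listed transcripts are absent from Gm45140. Rab33a was low, at 10.8 and 28.1 against 6.93, 9.61 and 15.9 normalized counts. Its log2 fold change was -0.72, and -1.37 without replicate 1 labelled WT, where that of Rab30 was -1.02. Within number 4 the difference was -0.79 for Rab33a and -0.71 for Rab30. Against the mean of the 3, the log2 ratio of Rab30 was 1.53 and 1.29 under the WT label and 0.41, 0.84 and 0.67 under the p75NTR-/- label. The difference of -0.77 had the smallest possible p of 0.1 in the exact permutation test and was -1.13 within number 1 and -0.62 within number 4. Against Rab33a alone the labels overlapped (difference -0.45, exact permutation p = 0.7).

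Rab30 and Rab4a were the 2 of the 40 Rab genes of mean 50 or more with a log2 fold change of -1 or lower, as were 1.23% of all 10786 such genes. Both were named in the selection of the genes, so their place in this count and the p-values of their ratios are descriptions.

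**Figure D3:**
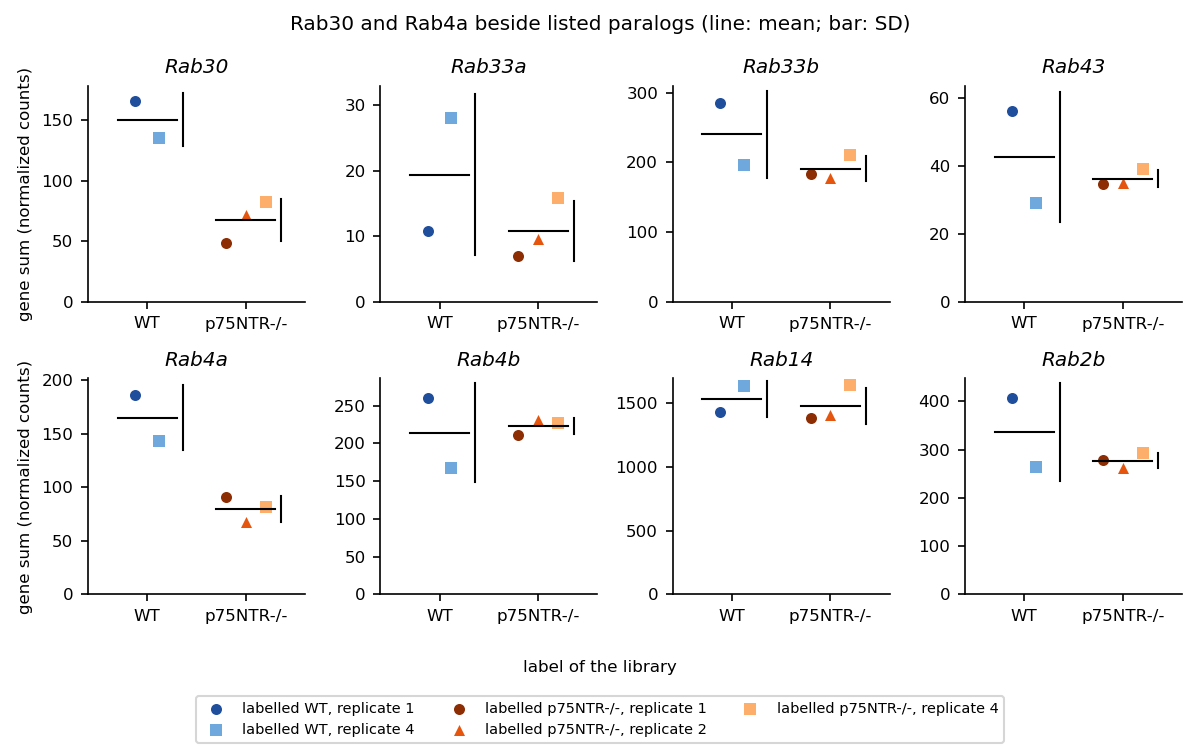
Gene sums in normalized counts (vertical axes from 0) of Rab30, Rab33a, Rab33b and Rab43 (top) and Rab4a, Rab4b, Rab14 and Rab2b (bottom) in each library, with the mean of a label as a line and its SD as a bar beside it. Both libraries labelled WT lie above the 3 labelled p75NTR-/- for Rab30 and Rab4a, whereas the labels overlap for the other 6 genes.

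Markers of astrocytes were lower on average under the p75NTR-/- label. The 6 of 6 listed astrocyte markers all had a negative log2 fold change, with a median of -0.96, and 0 of them were called. Their summed level was 1400 to 2195 TPM under the WT label and 888 to 1438 TPM under the p75NTR-/- label. Within number 4 the sum was not lower, at 1400 TPM under the WT label and 1438 TPM under the p75NTR-/- label. Gfap had 246 and 654 against 12, 1 and 706 counts, so that the replicate 4 libraries had high values under both labels. The 3 listed neuron markers of 7 summed to 669 to 923 and 629 to 979 TPM, and the 3 listed oligodendrocyte lineage markers of 6 to 108 to 191 and 106 to 299 TPM. None of 5 microglia markers was listed, and of the endothelium and mural markers and the fibroblast markers 1 each was, at no more than 0.66 TPM. The part of these markers in the Rab values was not tested.

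The 14 listed Rab genes of the ER, Golgi and early secretory route included 12 with a negative and 2 with a positive log2 fold change, at a median of -0.16. Besides Rab30, only Rab2a separated the labels. Rab6b, the neuronal relative of Rab6a, had 218 and 167 against 141, 143 and 198 normalized counts (log2 fold change -0.27, and -0.081 without replicate 1 labelled WT). Rab1b had 1774 and 1499 against 1798, 1943 and 1633. Rab18, a Rab of the ER and lipid droplets, had 1725 and 1858 against 1571, 1528 and 1870. Neither gene separated the labels. Rab1a and Rab1b had the 2 positive log2 fold changes of this group, 0.069 and 0.13. Rab39 was close to its detection limit, with at most 12.8 normalized counts in a library.

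Rab3b and Rab10 had the highest levels of the exocytic Rab genes. The mean over the 5 libraries was 196 TPM for Rab3b and 235 TPM for Rab10, but Rab3b was the higher in replicates 1 and 2 labelled p75NTR-/-, with 293 and 236 TPM. The Rab3 proteins sit on secretory and synaptic vesicles and regulate their release. Rab3b lies on chromosome 4 from 108879063 to 108943324 and had 1515 and 1773 normalized counts under the WT label and 3442, 2762 and 2121 under the p75NTR-/- label. The 3 libraries labelled p75NTR-/- were all higher, with means of 1644 ± 182 (SD, n = 2) and 2775 ± 661 (SD, n = 3). The log2 fold change was 0.73 (standard error 0.26, 95% interval 0.07 to 1.39, unadjusted p = 0.036 and adjusted p = 0.93 from limma). It was 1.18 within number 1 and 0.26 within number 4. The unadjusted p was under 0.05 in 8 of 13 settings and reached 0.15 without replicate 1 labelled WT, also by limma.

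The Rab3 relatives of Rab3b differed in level. Rab3a had a mean of 24.9 TPM, against 2.13 TPM for Rab3d and 0.766 TPM for Rab3c. Rab3a gene sums were 186 and 364 against 318, 233 and 392 normalized counts, and those of Rab3d were 39.3 and 12.48 against 17.8, 15.6 and 13.7. Rab3c was counted 20 times in one library, replicate 1 of the WT label, 29 times in another, replicate 1 of the p75NTR-/- label, and 0 times in the other 3, where a count of 0 allows up to 3 counts. It was thus found in the libraries numbered 1 under both labels. The log2 ratio of Rab3b to Rab3a overlapped between the labels (difference 0.50, exact permutation p = 0.4). The log2 ratio of Rab3b to Rab3d, its nearest relative by coding sequence (77.2% identity), separated the labels, with a difference of 1.217 and the smallest possible exact permutation p of 0.1. That difference was 2.28 within number 1 and 0.13 within number 4. Rab3d was highest in replicate 1 labelled WT, at 39.3 normalized counts. Neither ratio of Rab3b was among the planned tests.

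Rab26, a Rab of secretory granules and synaptic vesicles, stood out by a single library. Under the WT label it had 246 normalized counts in replicate 1 and 984 in replicate 4, against 1197, 720 and 899 under the p75NTR-/- label. The fitted log2 fold change was 0.90, with a 95% interval of -0.71 to 2.51 and an adjusted p of 0.93 from limma, and it became -0.10 without replicate 1 labelled WT. It was 2.28 within number 1 and -0.13 within number 4. Of the other exocytic genes, Rab10 had 2642 and 2729 against 2246, 2230 and 2755 normalized counts, and Rab8a, which directs vesicles to the plasma membrane and the cilium, 782 and 623 against 716, 699 and 596. Rab13, a Rab of tight junctions and surface transport, had 476 and 364 against 285, 298 and 434 (log2 fold change -0.32, and -0.13 without replicate 1 labelled WT). None of these 3 genes separated the labels. Of the 10 listed exocytic genes, 5 had a positive and 5 a negative log2 fold change, with a median of -0.031.

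**Figure D4:**
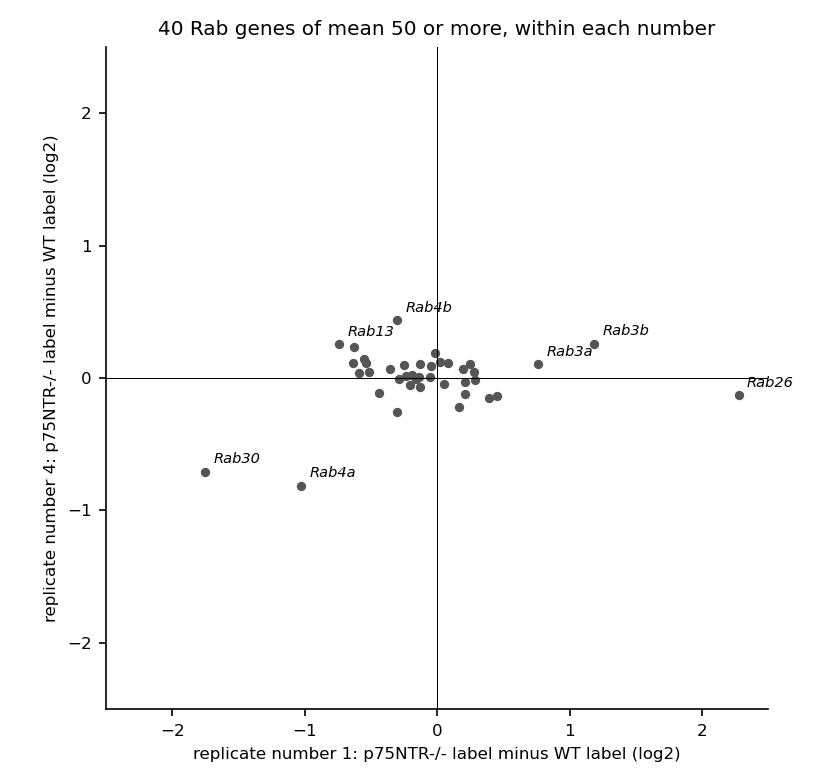
Log2 difference between the labels within replicate number 1 (horizontal) and within number 4 (vertical) for the 40 Rab genes with a mean of 50 normalized counts or more, on equal axes. Rab30 (-1.75 and -0.71) and Rab4a (-1.03 and -0.81) lie apart at the lower left, Rab26 (2.28 and -0.13) and Rab3b (1.18 and 0.26) extend along the horizontal axis, and most genes lie near 0 on the vertical axis.

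Among the 40 genes, the absolute difference between the labels was 1 or more for 4 genes within number 1 and for 0 genes within number 4. Its median was 0.281 within number 1 and 0.106 within number 4.

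The 14 listed Rab genes of early and recycling endosomes included 9 with a negative and 5 with a positive log2 fold change (median -0.13). Rab31 separated the labels in the positive direction, at 5260 and 5224 against 6377, 5637 and 5398 normalized counts, a log2 fold change of only 0.14. Rab5a, Rab5b and Rab5c, which control fusion of early endosomes, had log2 fold changes of -0.21, -0.25 and -0.21. Rab5b had 990.2 and 725 against 656, 748 and 743 normalized counts, where the highest value was that of replicate 1 labelled WT, without which its log2 fold change was -0.021. Rab11a, the Rab of the slow recycling route, had 2095 and 1633 against 1443, 1432 and 1771 (log2 fold change -0.26, and -0.084 without replicate 1 labelled WT), and Rab11b 1310 and 835 against 918, 1054 and 862. Rab35, which acts in recycling and at cell contacts, had 686 and 738 against 899, 786 and 666. These genes overlapped between the labels, as did Rab21, Rab22a, Rab17 and Rab20, whose log2 fold changes ran from -0.20 to 0.46.

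Of the 8 listed Rab genes of late endosomes, lysosomes and related organelles, 6 had a negative and 2 a positive log2 fold change (median -0.10). Rab24, which has been linked to autophagy, had 618 and 606 against 733, 703 and 653 normalized counts, without overlap (log2 fold change 0.18, 95% interval -0.22 to 0.58). Rab9, which returns receptors from late endosomes to the Golgi, had 1204 and 963 against 1080.5, 1020 and 960.3. Rab7b, a relative of Rab7 on the route from late endosomes to the Golgi, followed the replicate number more than the label. It had 32.4 and 92.6 against 15.8, 9.62 and 96.1 normalized counts, with the 2 highest values in the libraries numbered 4. Rab29, Rab32 and Rab38, which act at lysosomes or lysosome-related organelles, overlapped between the labels, with log2 fold changes from -0.16 to -0.13.

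The 3 Rab genes of the primary cilium had log2 fold changes of 0.020 (Rab23, an inhibitor of hedgehog signalling), 0.035 (Rab28) and 0.11 (Rab34). Without replicate 1 labelled WT these became -0.0058, -0.23 and -0.10. Their gene sums were 157 to 198, 556 to 803 and 548 to 732 normalized counts over the 5 libraries. Rab40b and Rab40c, which join ubiquitin ligases, had log2 fold changes of -0.34 and -0.19. Rab40b separated the labels, at 54.96 and 45.8 against 33.6, 40.9 and 44.4 normalized counts, although its lowest WT value and the highest value of the other label were nearly equal.

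The transcripts were compared in the same way over all 22227. None of the 74 Rab transcripts was called, where 0.0135% of all transcripts were. An unadjusted p under 0.05 in limma was found for 3 (4.05%, against 3.14% of all transcripts), which were Rab4b-208 and the single transcripts of Rab4a and Rab30. The labels did not overlap for 7 transcripts that were lower under the p75NTR-/- label (9.46%, against 7.61%) and for 5 that were higher (6.76%, against 8.94%). Of the 51 genes, 32 have 1 listed transcript, 15 have 2 and 4 have 3. In 7 of the 19 genes with several, the main transcript made up more than 90% of the gene sum in each library.

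Rab4b-208 (ENSMUST00000153511) is annotated as a target of nonsense-mediated decay and skips an exon of 155 bases on the minus strand of chromosome 7 from 27174422 to 27174576 in GRCm38. Its junction is shown against that of the full coding transcript Rab4b-201, with the bases after the splice site in capitals.
Rab4b-201: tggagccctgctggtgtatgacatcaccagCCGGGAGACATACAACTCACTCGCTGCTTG
Rab4b-208: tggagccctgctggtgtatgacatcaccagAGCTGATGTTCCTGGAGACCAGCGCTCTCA

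Rab4b-208 rested on 1 and 2 counts under the WT label and on 9, 11 and 19 under the p75NTR-/- label, so that both WT libraries were within the 3 counts that a count of 0 allows. Its unadjusted p was 0.0030 and its adjusted p 0.57 from limma, and its mean of 9.05 normalized counts was under the minimum for a call. The share of Rab4b-201 in the gene sum was 99.6% and 98.8% under the WT label and 95.8%, 94.3% and 91.2% under the p75NTR-/- label (difference -5.45 percentage points, exact permutation p = 0.1).

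Rab6a is read through mutually exclusive exons of 106 bases on the plus strand of chromosome 7 in GRCm38, from 100629838 to 100629943 in Rab6a-201 and from 100629666 to 100629771 in Rab6a-202. They are shown with the 30 bases at which they differ in capitals.
Rab6a-201: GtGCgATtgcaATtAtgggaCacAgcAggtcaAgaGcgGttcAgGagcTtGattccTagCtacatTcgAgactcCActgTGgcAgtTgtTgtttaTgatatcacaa
Rab6a-202: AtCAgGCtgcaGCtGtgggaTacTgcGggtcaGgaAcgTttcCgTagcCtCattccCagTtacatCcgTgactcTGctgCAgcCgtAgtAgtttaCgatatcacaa

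Rab6a-201 made up 80.6% and 81.3% of the summed counts of the gene with the WT label and 81.6%, 80.3% and 81.1% under the p75NTR-/- label, a difference of 0.076 percentage points (exact permutation p = 0.9). The use of the exons thus differed by less than the spread between libraries. The third listed transcript, Rab6a-203, had 194, 425, 225, 10.8 and 337 normalized counts, with replicate 2 labelled p75NTR-/- far below the others. None of its stretches of 31 coding bases is unique to it among the listed Rab transcripts.

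Other minor transcripts were absent from a single library. Rab5c-203 had 41.2, 39.5, 0, 57.7 and 41.2 normalized counts, and Rab13-202 had 59.9, 65.5, 0, 34.8 and 87.7. Replicate 1 labelled p75NTR-/- was at 0 for both, and neither transcript has a stretch of 31 bases of its own among the listed Rab transcripts. Rab11a-204, a short coding form with 12.3% of such stretches of its own, separated the labels at 333 and 299.6 against 202, 208 and 248 normalized counts (unadjusted p = 0.056 and adjusted p = 0.96 from limma). The main form Rab11a-208 made up 84.1% and 81.7% of the summed counts of the gene with the WT label and 86.0%, 85.5% and 86.0% under the p75NTR-/- label (exact permutation p = 0.1). In Rab7b the share of Rab7b-202 was 78.8% and 68.5% against 50%, 50% and 50.6% (exact permutation p = 0.1), at gene sums as low as 9.62 normalized counts. Rab4b, Rab11a and Rab7b were the 3 of 19 genes whose main-transcript share reached p = 0.1 in the exact permutation test, its smallest possible value.

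**Figure D5:**
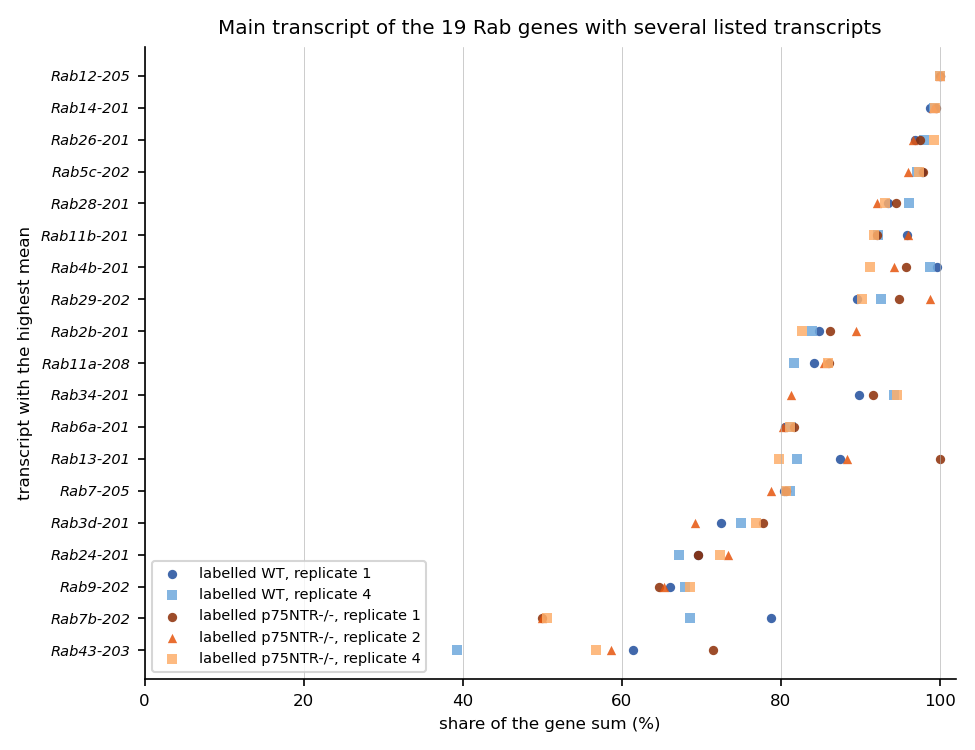
Share of the gene sum (horizontal axis, percent) taken by the transcript with the highest mean in each of the 19 Rab genes with several listed transcripts, with one point per library. The shares of Rab6a-201 lie between 80.3% and 81.6%, those of Rab4b-201 separate the labels, and those of Rab43-203 range from 39.3% to 71.4%.

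The genes that act on Rab proteins were read in the same fit. In the list of the prenylation and membrane cycle, which holds the escort proteins Chm and Chml and the prenyltransferase subunits Rabggta and Rabggtb, 0 of 13 listed genes were called, and 0 had an unadjusted p under 0.05. Their log2 fold changes had a median of -0.08 and ran from -0.30 to 0.21, and no gene separated the labels. The summed level of this list was 774 to 848 TPM. None of the 47 listed GEFs was called or had an unadjusted p under 0.05 in limma, and their median was -0.06. The labels did not overlap for 2 lower GEFs (4.26%, against 7.53% of all genes) and 1 higher GEF (2.13%, against 7.52%). The GEF farthest from 0, Rin1, chosen after its values were seen, was counted in 1 library, replicate 4 of the WT label (17.7 normalized counts), so that its fitted difference of -2.11 rests on that library. None of the 36 listed GAPs was called or had an unadjusted p under 0.05 in limma. Their log2 fold changes had a median of -0.10 and a range of -0.86 to 0.53. Without overlap, 4 GAPs were lower (11.1%, against 7.53% of all genes) and 2 were higher (5.56%, against 7.52%).

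Among 56 listed effectors, 0 passed the call and 1 reached an unadjusted p under 0.05 in limma (1.79%, against 2.08% of all genes). The labels did not overlap for 9 lower effectors (16.1%, against 7.53% of all genes) and 1 higher (1.79%, against 7.52%). The median was -0.12, with a range of -1.33 to 0.85. The effectors with the smallest p-values were chosen for naming after their values were seen. Myrip, which links Rab27 to myosin, had 134 and 74.9 against 29.7, 43.3 and 59.2 normalized counts (log2 fold change -1.22, unadjusted p = 0.027 and adjusted p = 0.93 from limma). Rab11fip4, an effector of Rab11, had 218 and 150 against 41.6, 87.7 and 119 (log2 fold change -1.24). Both genes were lower in all 3 libraries labelled p75NTR-/-, and in both the lowest library was replicate 1 of that label.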

How the data were processed

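RNA-Seq values of 5 NSPC libraries were analysed. The authors quantified reads with Salmon 0.10.2 on Ensembl transcripts of mouse (GRCm38.p6), then normalized with DESeq2 1.22.0 in R 3.6.1, per the submitters' processing notes and the paper. The deposited signal per transcript is a size-factor-normalized count to which 0.5 was added. The filter behind the listed transcripts is not given in the sources used here. The authors' TPM columns were summed per gene. The authors' baseMean is a deposited score that does not equal the mean of the 5 columns. The deposited log2 fold changes and p-values are the authors' own comparison and were not used.

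Lines that repeat a transcript (303 of 22530) were dropped, and 0.5 was subtracted. In each library at least 99.97% of values were then whole multiples, within 0.02, of a step per library. A count of 0 allows 3 counts, or 2.94 to 3.60 normalized counts, which covers counting error only. Values were summed per symbol. Of the transcripts, 22199 (99.9%) matched GENCODE release M21, and 22165 have a coding sequence.

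limma 3.58.1 (R 4.3.3; lmFit and eBayes, no covariate) was fitted to log2(value + 1), a scale that understates changes of low genes, over all genes or transcripts, and tested on simulated data. Single ratios and shares were compared by an exact permutation test over the 10 assignments of libraries, two-sided. Python 3.11.15, pandas 2.3.3, numpy 2.4.6, Biopython 1.88 (alignments) and matplotlib 3.10.9 were used. By rule, full values, here those of each library, were given for Rab30, Rab4a and their listed paralogs. They were also given for the 10 Rab genes of mean 50 or more with the smallest p and the 5 genes with the highest TPM. Fold changes, errors and adjusted p-values were printed for part of these genes. The rule also named the 10 Rab transcripts of mean 50 or more with the smallest p, of which not all were given (Rab13-201 was not). The genes, the role, pathway and marker lists and the tests were chosen with earlier results of these data known. One gene of the membrane cycle list is not reported here. The p-values measure the spread between these libraries. The alternatives were pseudocounts of 0.5 and 8, a minimum mean of 10, no minimum mean, TMM scaling, TPM sums, a replicate block and leaving out each library, with a variance trend added after seeing the data.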

Additional observations from a re-analysis of the deposited data

Results flagged for a closer look

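Rab12-201 (ENSMUST00000070538) has a mean of 33.9 normalized counts in the authors' column of means, although it had 0 counts in each of the 5 libraries analysed here. A count of 0 allows up to 3 counts per library. The transcript is named because the signal stands in a column that no comparison used. The Rab12 gene sum therefore rests on Rab12-205 alone.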

How the results depend on the processing

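The count of 0 called Rab genes, 0 called Rab transcripts and 0 called pathway genes was the same under each alternative run for it. The planned edgeR and DESeq2 tests were not run, because a check of the values did not accept that whole reads can be recovered in 1 library. The log2 fold change lay between -1.33 and -0.95 for Rab30 and between -1.22 and -0.85 for Rab4a over 13 settings, and that of Rab3b between 0.56 and 0.91, with adjusted p-values of 0.32 to 1.00 for the 3 genes in limma. Their unadjusted p was under 0.05 in 12 (Rab30), 13 (Rab4a) and 8 (Rab3b) of these settings, and that of Rab30 was 0.054 without replicate 1 labelled WT. The difference of Rab30 to its paralogs lay between -0.89 and -0.65 and that of Rab4a to Rab4b between -1.29 and -0.99, and the minimum mean of 10 does not enter these ratios. Rab genes with a positive log2 fold change numbered 15 to 21, and their median lay between -0.14 and -0.04. The deviations of libraries with the same number correlated at 0.26 (number 1) and 0.48 (number 4) across genes, and no source says that the numbers mark a shared litter or day. With the replicate block, 0 Rab genes were called, Rab30 was at -1.23 and Rab4a at -0.92, and 6 of the 51 Rab genes changed sign, among them Rab6a (0.097) and Rab7 (0.023). In fits that lacked 1 library, 22 genes changed sign without replicate 1 labelled WT (15 of them with a mean of 50 or more), 2 without replicate 4 labelled WT, and 4, 6 and 8 without replicates 1, 2 and 4 labelled p75NTR-/-. Some of the genes given in full by rule changed sign without replicate 1 labelled WT. These were Rab1a (range -0.043 to 0.18), Rab26 (-0.10 to 1.89), Rab2b (-0.56 to 0.067), Rab43 (-0.62 to 0.30) and Rab7 (-0.072 to 0.056, also without replicate 2 labelled p75NTR-/-). Those without replicate 4 labelled WT were Rab14 (-0.15 to 0.042) and Rab4b (-0.22 to 0.41), and Rab6a (-0.13 to 0.097) changed without replicate 2 labelled p75NTR-/-. Other genes with printed library values also changed sign without replicate 1 labelled WT, among them Rab3a, Rab3d, Rab11b, Rab8a and Rab9. The cause was not tested. The difference in the share of the main transcript kept its direction for Rab4b, Rab11a and Rab7b and ran from -0.29 to 0.44 percentage points for Rab6a. Rab30 and Rab4a rest on 49 to 190 counts per library, which limits their precision.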
